A study of Mus musculus with 4 samples.

Results

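The 9 genes described here encode transcription factors of the oligodendrocyte lineage. They are the basic helix-loop-helix factors Olig1 and Olig2, the SoxE factors Sox8, Sox9 and Sox10, the homeodomain factors Nkx2-2 and Nkx6-2, the myelin regulatory factor Myrf and the zinc finger factor Zfp488. They were chosen by name out of 21951 protein-coding genes of GENCODE M21 (mouse build mm10), and every m6A peak that touched an exon of one of them was taken. These were 29 of 38533 peaks in replicate 1 and 27 of 30134 peaks in replicate 2.

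The samples were 2 m6A immunoprecipitations (IP) of fragmented mRNA, each with an input sample of the same number, from whole brains of mice aged 4 weeks on the C57BL/6J strain. Per the series' description the mice were Prrc2a flox/flox, that is, they carried loxP sites in Prrc2a, which encodes an m6A reader, and no Cre driver was named for these samples. The labels did not say how many animals gave each sample. Each list holds regions where the IP exceeded its input past the authors' threshold, with 1 fold enrichment (IP over input, a linear ratio) per region, and read depth and strand are unknown.

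N6-methyladenosine (m6A) is the most common internal modification of mRNA. It is set co-transcriptionally by the Mettl3 and Mettl14 complex, mostly at adenosines within GGAC and related contexts in long exons and near stop codons, it can be removed by demethylases such as Fto, and reader proteins that bind it affect the stability and translation of the mRNA. In the oligodendrocyte lineage Olig2 acts early, specifying precursors from ventral progenitors with Sox9. Sox10 is kept in every stage of the lineage, and Myrf is switched on as precursors differentiate and drives myelin genes. Olig2 was the gene that the study examined in detail as a target of Prrc2a, and the site it tested was a GGACU in the Olig2 coding sequence (CDS).

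The sequences that the comparison turns on are the GGACT sites, written as DNA, on the spliced mRNAs. The 9 mRNAs held 24 of them, 11 in the CDS, 10 in the 3′ untranslated region (UTR) and 3 in the 5′ UTR. The adenosines of 10 (41.7%) lay within peaks of both replicates, which covered 32.3% of the bases of the 9 mRNAs. Over 9685 protein-coding genes with such bases, 29.3% of the GGACT sites and 20.1% of the bases lay within them. All 10 sites are shown, 5′ to 3′ on the mRNA strand with GGACT in capitals and mm10 coordinates.

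Olig2, CDS, chr16:91226394-91226414, plus strand: ggggccatGGACTcggacgcc
Olig2, CDS, chr16:91226501-91226521, plus strand: cacaggagGGACTgtgtcctc
Olig1, 3′ UTR, chr16:91271516-91271536, plus strand: cggtgttcGGACTtactaaaa
Sox8, CDS, chr17:25570427-25570447, minus strand: gaggattcGGACTccgacgcg
Sox8, 3′ UTR, chr17:25566871-25566891, minus strand: caacccggGGACTctcttggg
Sox9, 3′ UTR, chr11:112785867-112785887, plus strand: gcctgtttGGACTttgtaatt
Sox10, CDS, chr15:79159313-79159333, minus strand: gaccatccGGACTacaagtac
Nkx2-2, CDS, chr2:147183993-147184013, minus strand: ccagcagtGGACTtggtgagc
Nkx6-2, 3′ UTR, chr7:139581389-139581409, minus strand: gagaaccgGGACTcgcggcat
Myrf, CDS, chr19:10223457-10223477, minus strand: ggaacctgGGACTgtcacagc

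With position 1 at the A of the ATG, the adenosines of the Olig2 sites were at CDS positions 5 and 112, so that the first motif begins within the start codon itself. Of the 11 sites in coding sequence, 6 were in peaks of both replicates, and Olig2 had 2 of these 6. The share of coding-sequence sites over all genes was not computed. Peaks of both replicates covered 59.1% of the bases of the Olig2 mRNA. Zfp488 had 4 GGACT sites and none lay in a peak of either replicate, while Myrf had 7, of which 1 lay in peaks of both. The primers with which the study measured the Olig2 peak were found on the same mRNA and are shown because they fix which of its peaks was measured.

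Olig2 peak, forward primer, chr16:91226508-91226526, plus strand: gGGACTgtgtcctcgtcca
Olig2 peak, reverse primer, chr16:91226559-91226576, minus strand: catggcccctcgtagctc

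The forward primer begins on the site at position 112. The product of 69 bp spanned CDS positions 109 to 177 and lay wholly inside the second of the 4 Olig2 peaks, whose fold enrichment was 2.69 in replicate 1 and 1.88 in replicate 2. In neither replicate was this the strongest Olig2 peak.

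All 9 genes had at least 1 peak that overlapped between the replicates by 1 bp or more (a shared peak). The same held for 45.6% of all protein-coding genes, a background that includes genes not transcribed in brain. In replicate 1, 24 of the 29 peaks on the 9 genes were shared (82.8%, against 67.8% of all peaks over exons of protein-coding genes). In replicate 2, 24 of 27 were shared (88.9%, against 76.8%). With both lists held to a fold enrichment of at least 2, 15 of 25 and 15 of 17 peaks remained shared, and all 9 genes still had a shared peak. The shares over all exonic peaks at that threshold were not computed, so 67.8% and 76.8% are no background for these 2 counts. In whole brain, a factor found in few cells and one with little RNA per cell cannot be told apart, and a gene without a peak at some place may be unmethylated there or below what the lists could hold.

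Peaks on the 9 genes were of ordinary strength. Their fold enrichment ranged from 1.54 to 7.28 in replicate 1 with a median of 2.73, beside a median of 2.71 over all 31984 peaks on exons of protein-coding genes. In replicate 2 it ranged from 1.29 to 4.02 with a median of 2.17, and the median over all 28265 such peaks was also 2.17. The 9 genes did differ in how much of the mRNA the peaks covered. Bases within peaks of both replicates made up 65.6% of the Olig1 mRNA, 65.1% of Sox8, 59.1% of Olig2 and 56.9% of Sox10, but 14.1% of Sox9, 12.9% of Myrf and 8.44% of Zfp488. The median over the 9 genes was 36.1%, and over 10300 protein-coding genes with peaks in both replicates it was 17.4%. Olig1, Sox8, Olig2 and Sox10 were each covered over a larger share of the mRNA than 96.0% or more of those genes. The mRNAs of Sox9, Myrf and Zfp488 were the longest of the 9, at 4135, 5674 and 4301 nt. Those of Olig1, Sox8, Olig2 and Sox10 had 2162, 3000, 2530 and 2780 nt. The shortest, Nkx6-2 at 1299 nt, stood at 36.1%, and the part played by length was not tested.

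**Figure D1:**
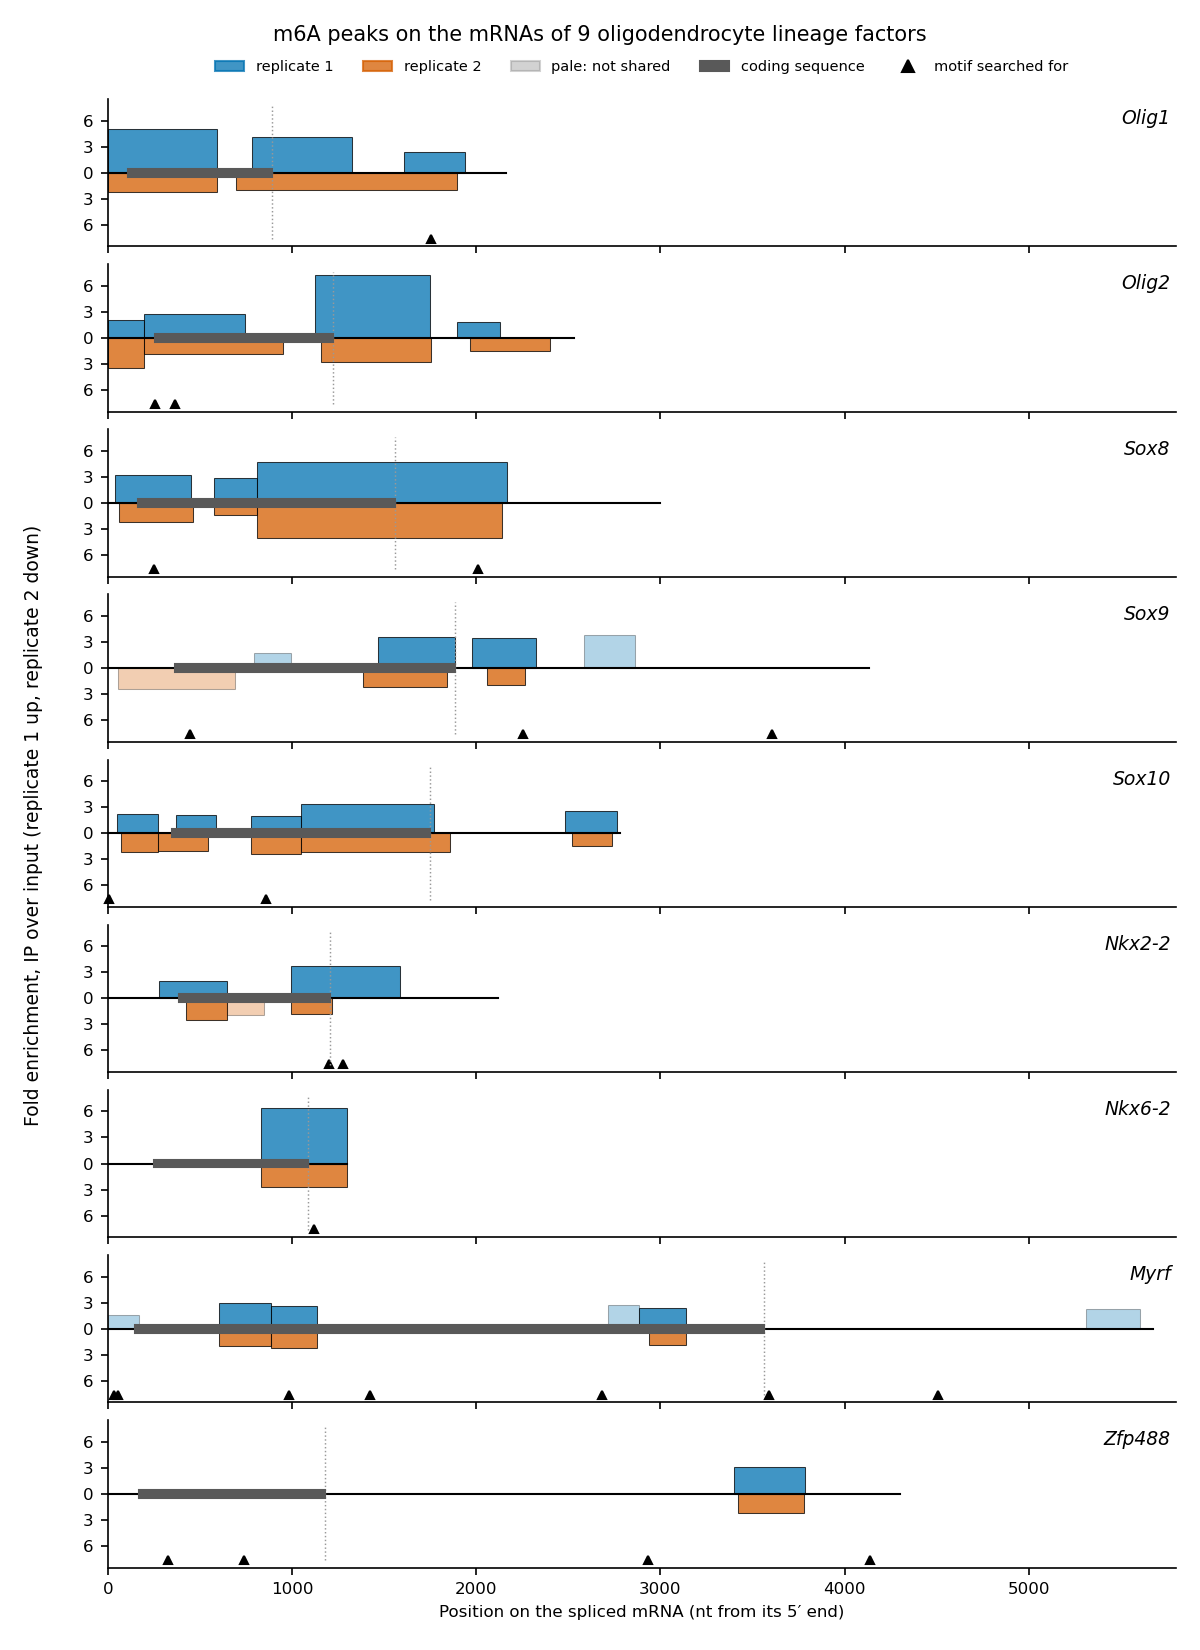
Peaks of replicate 1 (bars up) and replicate 2 (bars down) along the spliced representative mRNA of each factor, with position from the 5′ end in nt on the x axis and fold enrichment (IP over input) as bar height. Grey boxes mark the coding sequence, dotted lines its end, triangles the GGACT sites, and pale bars the peaks found in 1 list, and bars of both lists cover most of the Olig1, Olig2, Sox8 and Sox10 mRNAs while 1 bar of each list lies far into the Zfp488 3′ UTR.

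Olig2 (chromosome 16, 91225457 to 91228677, plus strand, 2 exons), the factor that specifies oligodendrocyte precursors, had 4 peaks in each replicate, and each peak had its partner in the other list. The first covered 197 nt of the 5′ UTR in exon 1, and its fold enrichment was 2.01 in replicate 1 (91225454 to 91225794) and 3.52 in replicate 2 (91225454 to 91225739). The second ran over the start codon at the head of exon 2, with 2.69 (91226345 to 91226889) and 1.88 (91226345 to 91227098). Both of these began at the same base in the lists. The third covered the stop codon, with 7.28 (91227269 to 91227893) and 2.76 (91227304 to 91227899). The fourth lay in the 3′ UTR, with 1.83 (91228045 to 91228277) and 1.51 (91228115 to 91228548).

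The replicates placed the 4 Olig2 peaks alike and ordered their strengths differently. The stop codon peak ranked above 99.0% of all exonic peaks of replicate 1 and above 74.9% of those of replicate 2. The 5′ UTR peak ranked above 24.0% in replicate 1 and above 91.3% in replicate 2. The second peak, which held both GGACT sites, ranked above 49.4% and 33.6%, and thus lay in the middle or lower part of both lists. The stop codon peak held no GGACT. It held 2 sites of the shorter motif GGAC, and the 5′ UTR peak held 1, shown here with GGAC in capitals since they lie in the strongest Olig2 peak of each replicate.

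Olig2, 5′ UTR, chr16:91225495-91225515, plus strand: ccccgcccGGACcaccgccac
Olig2, 3′ UTR, chr16:91227414-91227434, plus strand: agcagcgcGGACaggccagcg
Olig2, 3′ UTR, chr16:91227463-91227483, plus strand: ggggagctGGACcacgggctg

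The adenosines of the 3′ UTR sites were 53 and 102 nt past the last base of the stop codon. All 9 GGAC sites of the Olig2 mRNA lay in bases covered by both replicates, which made up 59.1% of that mRNA. On the 8 other mRNAs 54 of 131 GGAC sites (41.2%) did, with 29.6% of the bases covered by both. Over the 9685 protein-coding genes with bases covered by both, 28.4% of the GGAC sites and 20.1% of the bases were so covered.

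Olig1 (chromosome 16, 91269772 to 91271933, plus strand, a single exon), the neighbour and relative of Olig2 that acts in myelination and repair, had 3 peaks in replicate 1 and 2 in replicate 2. The peak over the 5′ UTR and start codon was enriched 5.05-fold in replicate 1 and 2.25-fold in replicate 2. Replicate 1 then had a peak over the stop codon at 4.16 and one in the 3′ UTR at 2.39, and both were overlapped by 1 wide peak of replicate 2 (91270465 to 91271665) at 2.04. All Olig1 peaks were thus shared, and the strongest one in each list was at the start of the mRNA and not at the stop codon.

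The SoxE genes encode related HMG-box factors that partly stand in for each other in glia. Sox8 (chromosome 17, 25565892 to 25570686, minus strand, 3 exons) had 3 peaks in both lists, each with its partner. On the genome its widest peak (25566725 to 25568222 in replicate 1) began in the intron before exon 3. On the mRNA it ran from the start of exon 3 through the last part of the CDS and past the stop codon into the 3′ UTR. Its fold enrichment was 4.68 in replicate 1 and 4.02 in replicate 2, and it was the strongest Sox8 peak in both. The peak over the start codon had 3.24 and 2.18, and that in exon 2 had 2.86 and 1.33. Exons of 2810468N07Rik on the opposite strand lie under the start codon peak, and without strand the source of those fragments cannot be told apart.

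Sox10 (chromosome 15, 79154908 to 79165240, minus strand, 5 exons), which marks the whole lineage and acts with Myrf on myelin genes, had 5 peaks in each replicate, all shared, from the 5′ UTR to the end of the 3′ UTR. The strongest in replicate 1 covered the last part of the CDS and the stop codon with a fold enrichment of 3.39, and its partner had 2.19. The strongest in replicate 2 lay in exon 4 at 2.41 over the GGACT site shown above, with 2.00 in replicate 1. The other 3 peaks ranged from 2.16 to 2.51 in replicate 1 and from 1.48 to 2.20 in replicate 2. A further replicate 1 peak, at 1.52 (79158422 to 79158863), touched no exon and was the single peak confined to an intron of the 9 genes.

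Sox9 (chromosome 11, 112782224 to 112787760, plus strand, 3 exons), which acts in the early gliogenic switch and later marks astrocytes, had 4 peaks in replicate 1 and 3 in replicate 2, of which 2 in each were shared. These 2 lay on either side of the stop codon without covering it. The peak at the end of the CDS had a fold enrichment of 3.58 and 2.17, and the 3′ UTR peak had 3.46 and 2.00. The strongest Sox9 peak of each list was not shared. It was a 3′ UTR peak at 3.77 in replicate 1 (112786208 to 112786484) and a peak over the start codon at 2.44 in replicate 2 (112782277 to 112782914). That replicate 2 peak held a Sox9 GGACT site whose adenosine is at CDS position 86, the same position as in the Sox8 CDS, where both replicates had a peak.

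Among the homeodomain factors, Nkx2-2 (chromosome 2, 147177546 to 147194243, minus strand), which promotes differentiation of precursors downstream of Sonic hedgehog, had 2 peaks in replicate 1 and 3 in replicate 2. The peak at the stop codon was enriched 3.69-fold in replicate 1 and 1.79-fold in replicate 2, and the peak near the start of the CDS had 2.03 and 2.47. The order of these peaks was thus reversed between the replicates. Replicate 2 had a further peak at 1.97 within the CDS that replicate 1 lacked. The peaks in the second exon, those at the stop codon included, overlap exons of Nkx2-2os on the opposite strand. Without strand the source of those fragments cannot be told apart.

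Nkx6-2 (chromosome 7, 139579376 to 139582797, minus strand), a factor of mature oligodendrocytes, had 1 wide peak in replicate 1 over the last exon (139580892 to 139581725) with a fold enrichment of 6.38, which ranked above 97.5% of that list. Replicate 2 had 2.73 over the stop codon (139581179 to 139581765) and 2.10 farther 3′ (139580865 to 139581064), both under the replicate 1 peak. A further replicate 2 peak, at 1.29, lay at the end of a longer Nkx6-2 transcript where exons of Inpp5a run on the opposite strand, and it was not shared.

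Myrf (chromosome 19, 10208272 to 10240748, minus strand, 27 exons), a membrane-bound factor that cleaves itself and whose freed part activates myelin genes, had 6 peaks in replicate 1 and 3 in replicate 2. The 3 shared peaks lay in internal coding exons. The peak in exon 5 was enriched 2.98-fold in replicate 1 and 1.98-fold in replicate 2, that in exon 6 had 2.66 and 2.26, and that in exon 22 had 2.38 and 1.89. No Myrf peak covered the stop codon. The 3 peaks of replicate 1 that were not shared lay over the start codon at 1.54, in exon 21 at 2.73 and in the 3′ UTR at 2.31.

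Zfp488 (chromosome 14, 33967070 to 33978764, minus strand, 2 exons), a zinc finger factor reported to act with Olig2, had 1 peak in each replicate at nearly the same bounds (33967587 to 33967971 and 33967590 to 33967952). Its fold enrichment was 3.12 in replicate 1 and 2.19 in replicate 2. The peak was centred 2412 nt past the stop codon in replicate 1 and 2420 nt past it in replicate 2, and it held neither GGACT nor GGAC. Zfp488 was the single one of the 9 genes without a peak on its CDS.

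**Figure D2:**
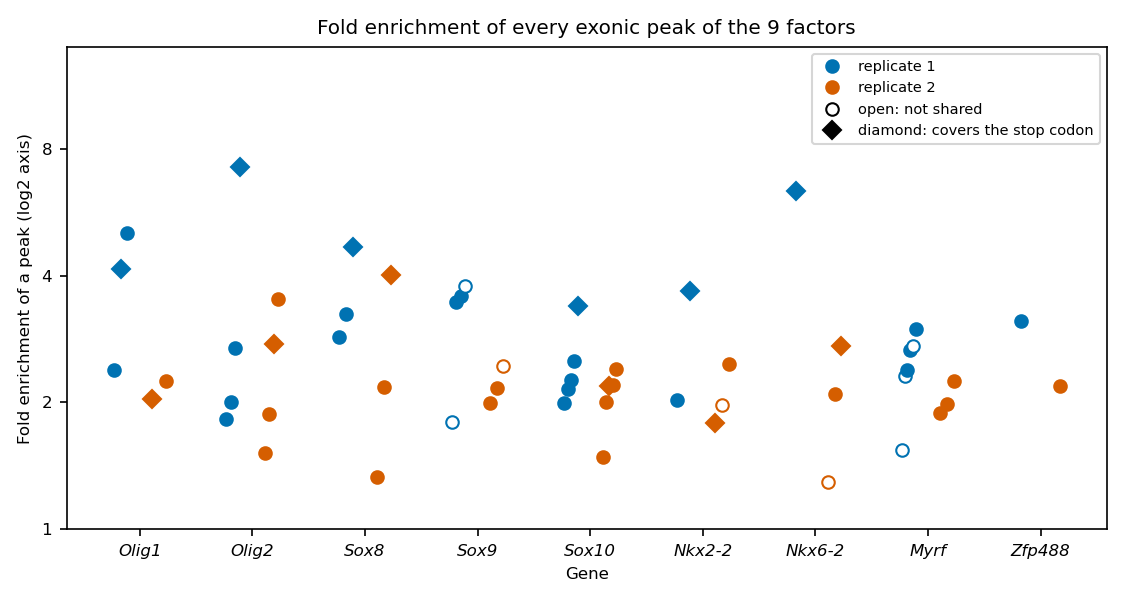
Fold enrichment (log2 axis) of every exonic peak of the 9 genes in replicate 1 and replicate 2, each point a peak, open points not shared and diamonds covering the stop codon. The highest point of replicate 1 is the Olig2 stop codon peak at 7.28, and the highest of replicate 2 is the Sox8 stop codon peak at 4.02.

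Stop codons carried a peak in both replicates in 6 of the 9 genes, namely Olig1, Olig2, Sox8, Sox10, Nkx2-2 and Nkx6-2 (66.7%, against 49.7% of the 10300 protein-coding genes with peaks in both lists). Sox9, Myrf and Zfp488 had none in either replicate. The stop codon peaks of Nkx2-2 also lie over exons of Nkx2-2os on the opposite strand. In replicate 1 the 6 stop codon peaks ranged in fold enrichment from 3.39 to 7.28 with a median of 4.42, and the 23 other peaks had a median of 2.51. In replicate 2 the stop codon peaks ranged from 1.79 to 4.02 with a median of 2.46, against 2.10 for the 21 others. Over all protein-coding genes the medians were 3.56 at stop codons and 2.56 elsewhere in replicate 1, and 2.61 and 2.06 in replicate 2. The strongest peak of the gene covered the stop codon in both replicates for Sox8 and Nkx6-2 alone (22.2%, against 27.5% of all such genes). This count rested on replicate 2. In replicate 1 by itself it was 5 genes, with Olig2, Sox10 and Nkx2-2 added. The share of all genes in replicate 1 alone was not computed, and 27.5% is no background for this count. Many of these peaks were wide, and 3 of the 9 genes had in both replicates a peak centred within 200 nt of the stop codon, against 41% of the 10300 genes.

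**Figure D3:**
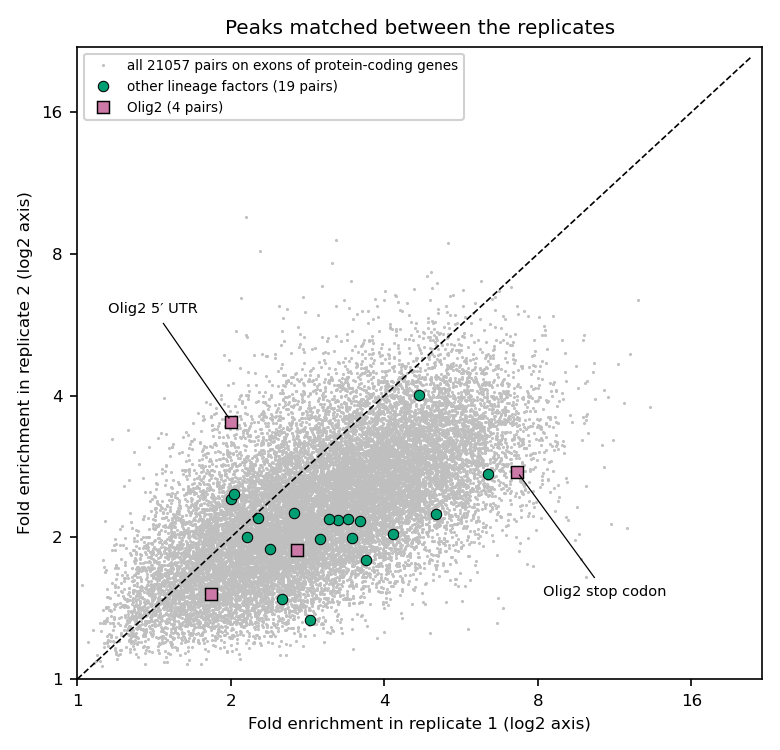
Fold enrichment in replicate 1 (x axis) and replicate 2 (y axis), both on log2 axes, of peaks matched between the lists, with the 4 Olig2 pairs as squares, the 19 pairs of the other factors as circles, all 21057 pairs on exons of protein-coding genes in grey and equal values on the dashed line. The Olig2 5′ UTR pair lies above the line at 2.01 and 3.52 and the stop codon pair far below it at 7.28 and 2.76.

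Matching each peak with its best partner in the other list gave 23 pairs on the 9 genes. In 20 of the 23 the fold enrichment was higher in replicate 1 (87%), as it was in 78.3% of all 21057 pairs on exons of protein-coding genes. The median log2 ratio of replicate 1 to replicate 2 was 0.57 on the 9 genes and 0.37 over all pairs, so that values of the lists cannot be compared without regard to this shift. Of the 23 pairs, Olig2 held the most extreme ratio in each direction. Its stop codon pair had a log2 ratio of 1.40, above 98.4% of all pairs, and its 5′ UTR pair had -0.81, below all but 0.703% of them. The remaining 2 pairs higher in replicate 2 were Sox10 exon 4 at -0.27 and the Nkx2-2 CDS pair at -0.29.

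Olig2 was then set against the 8 other factors within each replicate. By the mean over the peaks of a gene, the log2 fold enrichment of Olig2 was 1.54 in replicate 1, against 1.70 ± 0.46 (SD over 8 genes), and 3 of the 8 were lower. In replicate 2 it was 1.20 against 1.07 ± 0.07 (SD over 8 genes), and all 8 were lower, with Sox8 next at 1.18. The Nkx6-2 mean there, 0.96, included the unshared 1.29-fold peak over exons of Inpp5a. On the transcript with the longest CDS alone, Nkx6-2 had 1.45, above Olig2. The replicate 2 difference of Olig2 from the others was then 0.061. With all exonic peaks, the difference of Olig2 from the others was -0.16 in replicate 1 and 0.12 in replicate 2. Its mean was -0.018 ± 0.20 (SD, n = 2). The exact two-sided sign-flip permutation test gave p = 1, its value whenever 2 differences have opposite signs. The smallest p that 2 replicates allow is 0.5, so the test could not decide whether Olig2 differed from the others.

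By its strongest peak, Olig2 stood at or near the top in both lists. Its log2 fold enrichment was 2.86 in replicate 1, above all 8 others, whose mean was 2.00 ± 0.38 (SD over 8 genes). In replicate 2 it was 1.82, below Sox8 at 2.01 and above the remaining 7, with a mean of the 8 of 1.35 ± 0.28. Olig2 thus exceeded the mean of the 8 by 0.86 (replicate 1) and 0.47 (replicate 2), on average by 0.66 ± 0.28 (SD, n = 2). The exact sign-flip permutation test gave p = 0.5, its value whenever 2 differences share a sign. It therefore cannot tell this difference from replicate error. The Olig2 maxima came from different peaks, the stop codon peak in replicate 1 and the 5′ UTR peak in replicate 2. A maximum can only rise as peaks are added, and the genes differed in their number. Olig2 had 4 in each list, and the others had from 1 to 6 in replicate 1 and from 1 to 5 in replicate 2. The part played by peak number was not tested. Among all 10300 genes with peaks in both lists, the strongest Olig2 peak exceeded that of 97.1% in replicate 1 and of 79.3% in replicate 2.

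**Figure D4:**
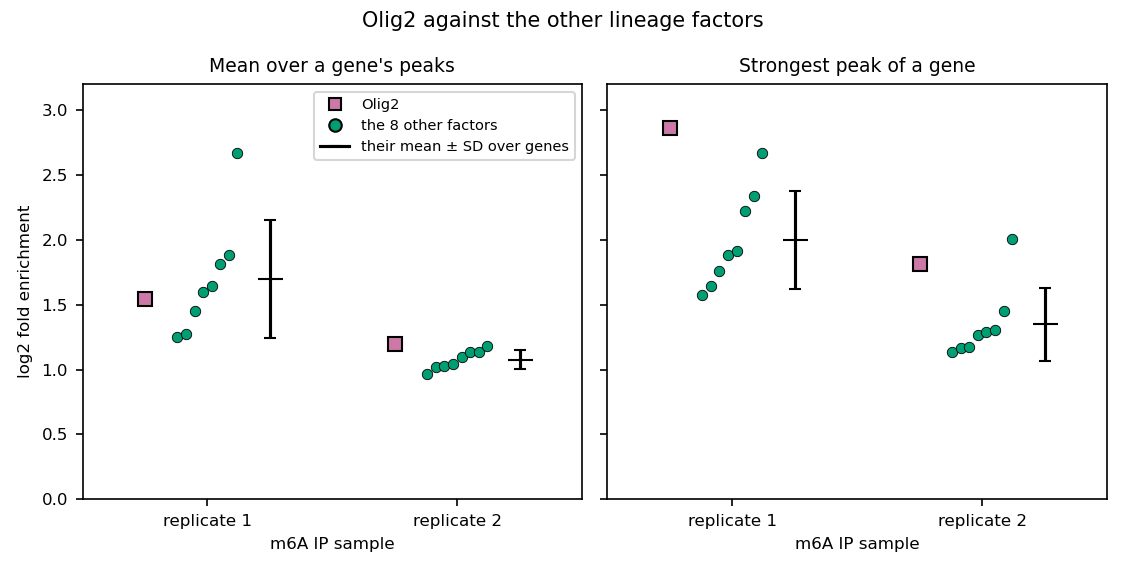
Log2 fold enrichment of Olig2 (squares) and of the 8 other factors (circles, sorted) in each m6A IP sample, as the mean over the peaks of a gene (left) and as its strongest peak (right), with the mean ± SD over the 8 genes in black. The Olig2 square lies inside the range of the others in replicate 1 by the mean, and above all 8 in replicate 1 by the strongest peak.

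Motifs were searched on the mRNA strand in the 24 intervals of the 9 genes that peaks of both replicates covered. These intervals ran from 163 to 1331 nt with a median of 274.5 nt, and 9 of the 24 held GGACT (37.5%). Among all 21743 such intervals of protein-coding genes, with a median of 262 nt, GGACT was in 37.5%. Olig2 had GGACT in 1 of its 4 intervals, with both sites in that interval. GGAC, which GGACT contains, was in 20 of the 24 intervals against 74.5% of all, and the DRACH context (AC after any base but C and a purine, and before any base but G) was in all 24 against 95.3% of all. Per kb, GGACT occurred 1.11 times inside the covered bases of the 9 mRNAs and 0.738 times outside them. On the 9685 genes with such intervals it occurred 1.61 times inside and 0.979 times outside. Intervals of this length do not tell which adenosine was methylated.

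The profile of log2 fold enrichment along the mRNA was compared across genes in 30 bins (5 of the 5′ UTR, 15 of the CDS and 10 of the 3′ UTR, mean of both replicates, 0 where no peak lay). Among 9346 protein-coding genes with a shared peak, the profiles most like that of Olig2 were those of Ankrd40 (Pearson r = 0.92 over bins), Nr2f1 (r = 0.88), Klf2 (r = 0.88), Arpp21 (r = 0.85) and Sel1l (r = 0.84). Of the lineage factors, Olig1 was nearest, with r = 0.61, above 96.7% of those genes. Sox8 had r = 0.39, Nkx2-2 0.38 and Sox9 0.32, and the r of Nkx6-2, Zfp488, Sox10 and Myrf was negative, from -0.13 to -0.28. Neighbouring bins share peaks, so these are descriptions.

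Other genes of the lineage were counted in the same way. Of 24 further transcription factors that act in oligodendrocyte development, 21 had a shared peak, against 45.6% of all protein-coding genes. Of these 21, 13 had a stop codon peak in both replicates, against 49.7% of the 10300 genes with peaks in both lists. The largest shared values, by the lower of both replicates, were those of the nuclear factor Nfib (5.31 and 4.55), Zfp24 (3.95 and 4.69), a zinc finger regulator of myelination, and Sox6 (7.55 and 3.84), which holds precursors back from differentiation. Nkx6-1, Olig3 and Hes5 had no peak in either list. The median over genes of the strongest peak was 4.39 in replicate 1 and 3.12 in replicate 2 for this list, against 3.77 and 2.44 for the 9 factors and 3.84 and 2.76 for all 10300 genes with peaks in both lists.

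Of 12 genes of the signals upstream of the factors, 11 had a shared peak. The share over all protein-coding genes, 45.6%, stands beside this count and the counts that follow. These 11 were led by the precursor mitogen Pdgfa (5.98 and 5.99), the hedgehog effector Gli2 (4.64 and 4.29) and the Notch ligand Jag1 (5.93 and 3.88). Shh, the ventral hedgehog signal that induces Olig2 and Nkx2-2, had 2 peaks in replicate 1 and 1 in replicate 2, none of them shared. Of 10 myelin genes, which lie downstream of Sox10 and Myrf, 9 had a shared peak. Mobp (3.42 and 3.52), Cnp (3.38 and 2.56) and Ermn (3.63 and 2.52) had the largest shared values, and Tspan2 had no peak. Markers of precursors, oligodendrocytes, neurons, astrocytes, microglia and endothelium had shared peaks in 20 of 20 genes, and 4 markers of tissues outside the brain (Alb, Myh1, Ckm and Hba-a1) had none. The lists thus held peaks on marker genes of all these brain cell types. Which cells gave the fragments, on the markers or on the 9 factors, was not measured.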

How the data were processed

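m6A-seq was performed on poly(A) RNA from whole mouse brain, with 2 IP samples and 2 input samples. Per the study's methods, the authors trimmed reads with Cutadapt and Trimmomatic, aligned them to mm10 with TopHat2 (version 2.0.9 in the submitters' processing notes; the methods give another version), kept uniquely mapped reads and called peaks with MACS2 for each IP against its own input, without pooling and with duplicates kept. The deposited lists give a fold enrichment, a linear ratio of IP to input, per peak. The input samples entered through that ratio and were not analysed here on their own. Wide fragments and kept duplicates limit the resolution and can raise the ratio.

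Peaks were assigned to genes by overlap of at least 1 bp with GENCODE M21 exons, and sharing was counted likewise and checked with bedtools 2.31.1. Positions refer to the transcript of a gene with the longest CDS, then the longest length. Stop codon peaks cover part of that codon. Matched pairs are mutual best overlaps. Values were analysed as log2 in Python 3.11.15 with numpy 2.4.6, and the code was tested on simulated data. The study calls the 2 IP samples biological replicates. The animals behind each sample were not listed, so spreads may still be partly technical. Sequences come from GENCODE M21 transcripts and, for the primers, the study's supplementary table. Named were all 9 factors, from each further list the 3 genes with the largest shared value and those without a shared peak, and the 5 genes most like Olig2. Some myelin genes are not reported here and were left out of the lists. The members and lists were chosen with earlier results of these data known. Alternatives covered the overlap rule, the fold threshold, the exons, the summary of a gene, the stop codon window, the motif and each replicate left out.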

Additional observations from a re-analysis of the deposited data

How the results depend on the processing

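The counts and the Olig2 comparison, 7 results in all, were recomputed under 36 alternatives, and in 24 of them a count stayed within 1.5 times or the Olig2 difference kept its sign. The counts of genes with a shared peak or a stop codon peak could not fall with 1 replicate left out. Those alternatives were no check, although they are among the 24. With peaks under a fold enrichment of 2 dropped, 15 peaks of each replicate were shared. The Olig2 difference of mean log2 fold enrichment, -0.018, turned positive with the strongest peak (0.66), weighting by exonic bases (0.0082), a fold of at least 2 (0.21) and the median over genes (0.024), and ran from -0.16 to 0.12 when 1 replicate was left out, so its sign is not set by these data; the cause was not tested. Peaks centred within 200 and 100 nt of the stop codon were found in both replicates of 3 and 2 genes, in place of 6 genes. With 1 replicate left out, the strongest peak covered the stop codon in 2 to 5 genes, a count that likewise could not fall. GGAC was in 20 and DRACH in 24 of the 24 shared intervals, as every GGACT site is also a match to these shorter or looser motifs. No paired analysis was possible because each IP list is already a ratio to the input of the same number and no second group of lists shares those numbers. Depth is unknown, so the limit it sets on weak peaks could not be given.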
